A study of Ogataea polymorpha NCYC 495 leu1.1 with 8 samples.

Results

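Carnitine is the carrier on which yeast cells move activated acetyl groups between peroxisomes, cytosol and mitochondria, because acetyl-CoA itself does not cross these membranes. A carnitine acetyltransferase transfers the acetyl group from coenzyme A to carnitine on one side of a membrane, and a second acetyltransferase reverses the reaction on the other side. A carrier of the mitochondrial inner membrane lets acetylcarnitine in and carnitine out. In Saccharomyces cerevisiae this carrier is Crc1, and the acetyltransferases are Cat2 in peroxisomes and mitochondria, Yat1 at the outer face of mitochondria and Yat2 in the cytosol. The shuttle is known from growth on fatty acids, acetate and ethanol.

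In the methylotrophic yeast Hansenula polymorpha, the genes chosen here were all 4 that the study annotates as parts of this shuttle, out of 5999 genes on the array. They are Hp15g677 (CRC1, the mitochondrial carnitine/acylcarnitine carrier), Hp39g121 (YAT1) and Hp8g466 (YAT2), both carnitine acetyltransferases, and Hp47g959, a carnitine acetyl-CoA transferase without a gene symbol. They were taken by identifier from the genes that the study lists for its response to methanol on these samples, so their direction is not independent evidence. The localisation of the 4 proteins in H. polymorpha was not measured on these arrays.

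Strain NCYC 495 leu1.1 was compared after 2 h on 0.5% methanol with the same culture on glucose, sampled at the moment of transfer. Glucose batch cultures at 37 °C were taken at an OD of 2.3 and diluted to an OD of 0.2 in fresh mineral medium with methanol as the sole carbon source. Both conditions therefore share strain and temperature, whereas carbon source, cell density, fresh medium and time after transfer change together and cannot be told apart. The 4 cultures, written below as cultures 1 to 4, were treated separately, and the RNA of its methanol and glucose samples was put on a pair of arrays with Cy3 and Cy5 exchanged, which made 8 arrays. Equal amounts of RNA were labelled, so a signal is a share of the RNA, and more transcripts of a gene per cell and less of other RNA cannot be told apart.

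Each gene had 2 spots per array. A level below is the processed signal of Agilent Feature Extraction in arbitrary units, taken as the geometric mean over the spots and then over both arrays of a culture, and it can be compared for 1 gene between conditions but not between genes, whose probes differ. Between 90.6% and 98.3% of the gene spots of a channel were well above background, and channel medians lay between 1590 and 3200. Across genes, which are not independent, r of the log2 ratios was 0.982 to 0.985 between the arrays of 1 culture and 0.894 to 0.978 between cultures. All 128 signals of the 4 shuttle genes (64 spots in 2 dyes) were well above background, and none was saturated or marked as an outlier.

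All 4 shuttle genes were strongly upregulated 2 h after the shift to methanol, by 33.8- to 90.8-fold on average. The carrier gene CRC1 had the largest change, and the changes of the 3 acetyltransferase genes lay between 33.8- and 40.6-fold. All 4 passed the limits for a call, which were a fold change above 2, an adjusted p below 0.05 (limma, Benjamini-Hochberg) and a mean log2 signal (A-value) of at least 6, as did 19.1% of all genes in this direction, and none was called downregulated, as 21.4% of all genes were. Their mean changes were also above 30-fold, as in 1.07% of all genes, a limit set with their values known, and with glucose in Cy5 alone only CRC1 was above it.

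CRC1, the carrier of the inner membrane, had signals of 317612, 133060, 122087 and 78718 in the methanol samples of cultures 1 to 4, against 3010, 1216, 1339 and 1217 in their glucose samples. The lowest methanol signal was 26.2-fold above the highest glucose signal, so the conditions did not overlap, and 20% of all genes were separated in this direction. The log2 ratios of methanol over glucose were 6.72, 6.77, 6.51 and 6.02 in cultures 1 to 4, with a mean of 6.51 ± 0.35 (SD, n = 4), and the mean fold change was 90.8 (95% confidence interval 70.0 to 118). The adjusted p was 2.87e-06 (limma, Benjamini-Hochberg over all genes), and by mean ratio CRC1 ranked 14 of the 5999 genes (10 with methanol in Cy5 alone, 24 with glucose in Cy5 alone). Culture 4 had the smallest ratio and the lowest methanol signal, and its glucose signal was close to that of culture 2. With glucose in Cy5 alone, the smallest ratio was that of culture 1 (5.57, against 5.61 in culture 4).

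YAT1, an acetyltransferase, had signals of 353511, 174339, 160362 and 184593 in the methanol samples of cultures 1 to 4, against 9475, 4290, 3829 and 4324 in their glucose samples. Culture 1 was the highest in both conditions, and the other 3 cultures lay close together. The lowest methanol signal was 16.9-fold above the highest glucose signal. The log2 ratios were 5.22, 5.34, 5.39 and 5.42, with a mean of 5.34 ± 0.086 (SD, n = 4) or 40.6-fold (95% confidence interval 34.6 to 47.6, adjusted p = 2.11e-06, limma with Benjamini-Hochberg). This was the most even of the 4 genes across cultures, since only 5.55% of all genes had a smaller SD of the log2 ratio.

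YAT2, a second acetyltransferase, had signals of 53478, 12970, 25918 and 20004 in the methanol samples of cultures 1 to 4, against 1223, 448 and 639 in the glucose samples of cultures 1 to 3 and 786 in that of culture 4. The lowest methanol signal was 10.6-fold above the highest glucose signal. The log2 ratios of 5.45, 4.86, 5.34 and 4.67 fell into a higher pair, cultures 1 and 3, and a lower pair, cultures 2 and 4. The mean was 5.08 ± 0.38 (SD, n = 4) or 33.8-fold (95% confidence interval 25.7 to 44.5, adjusted p = 5.50e-06, limma with Benjamini-Hochberg). It was the least even of the shuttle genes, and 70.9% of all genes had a smaller SD of the log2 ratio.

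Hp47g959, the carnitine acetyl-CoA transferase, had signals of 314927, 137795, 100832 and 114745 in the methanol samples of cultures 1 to 4, against 9087, 3479, 2723 and 4039 in their glucose samples. Its conditions were separated by 11.1-fold between the lowest methanol and the highest glucose signal. The log2 ratios were 5.12, 5.31, 5.21 and 4.83, with a mean of 5.12 ± 0.21 (SD, n = 4) or 34.7-fold (95% confidence interval 28.5 to 42.2, adjusted p = 2.79e-06, limma with Benjamini-Hochberg). As for CRC1, culture 4 had the smallest ratio over both labellings. With glucose in Cy5 alone, culture 1 had the smallest ratio (3.96, against 4.24 in culture 4).

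**Figure D1:**
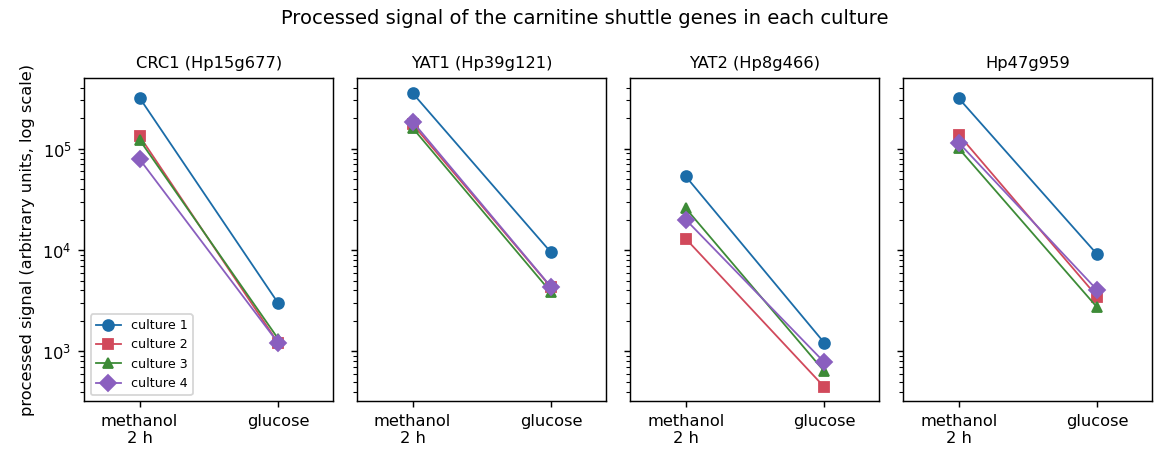
Processed signal (arbitrary units, log scale) of CRC1, YAT1, YAT2 and Hp47g959 in each of 4 cultures 2 h after the shift to methanol and on glucose, with a line joining the samples of a culture. For every gene all 4 methanol samples lie above all glucose samples, by at least 10.6-fold, and culture 1 is the highest in both conditions.

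Culture 1 had the highest signal of all 4 genes in both conditions, and this was still so after each level was set against the median of its channel. For CRC1, the glucose level of culture 1 stood at -0.025 relative to that median on the log2 scale, against -1.28 to -0.33 in the other cultures. In the log2 ratios over both labellings culture 1 was the highest for YAT2, the lowest for YAT1 and between other cultures for CRC1 and Hp47g959. Left out, it gave fold changes of 86.4 for CRC1, 41.7 for YAT1, 31.0 for YAT2 and 34.7 for Hp47g959.

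The arrays of cultures 1 and 2 lay in one row of the slide and those of cultures 3 and 4 in the other, and both conditions are present on each array. Within row 1 the mean log2 ratio of CRC1 was 6.75 and within row 2 it was 6.26. That of YAT1 was 5.28 in row 1 and 5.40 in row 2. YAT2 had 5.15 in row 1 and 5.01 in row 2, and Hp47g959 had 5.21 and 5.02 in the same order. All 4 genes were called in each row alone and with the row as a block.

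**Figure D2:**
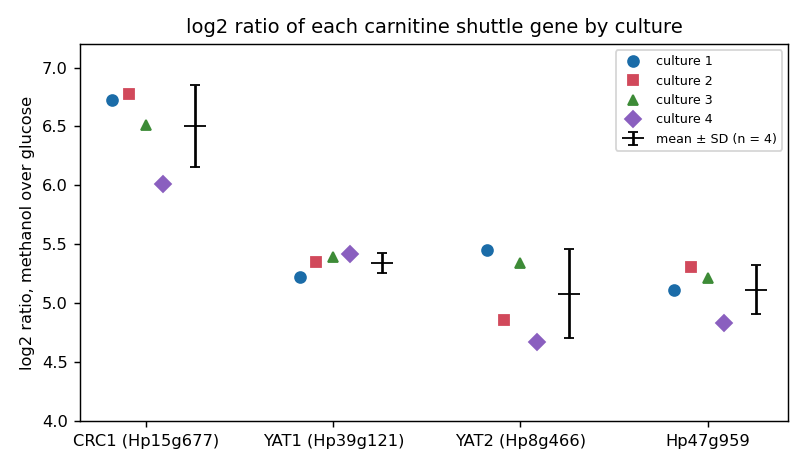
log2 ratio of methanol over glucose for the 4 shuttle genes in each culture, with the mean and SD over n = 4 cultures beside the points. CRC1 lies between 6.02 and 6.77, above the other 3 genes in every culture, and the ratios of YAT1 are the closest together.

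The genes were then compared within each culture by their log2 ratios, since levels cannot be compared between genes. Ratios of different probes can also depend unequally on the dyes. CRC1 minus YAT2 was 1.87 with methanol in Cy5 and 0.98 with glucose in Cy5. In the same order the values were 1.17 and 1.15 for CRC1 minus YAT1, and 1.35 and 1.43 for CRC1 minus Hp47g959. The 6 pairs were compared by an exact two-sided sign-flip test over 4 cultures, whose smallest possible p is 0.13, so no pair could reach 0.05. The ratio of the carrier gene CRC1 was larger than that of each acetyltransferase gene in 4 of 4 cultures. It was larger by 1.16 ± 0.41 on the log2 scale than that of YAT1 (95% confidence interval 0.51 to 1.81), or 2.24-fold. The difference from YAT2 was 1.43 ± 0.34 (0.89 to 1.96) and that from Hp47g959 was 1.39 ± 0.18 (1.097 to 1.683), with SD over 4 cultures and 95% intervals. For each of these 3 pairs the exact p was 0.13, and 0.188 after Benjamini-Hochberg adjustment over the 6 pairs.

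The 3 acetyltransferase genes (YAT1, YAT2 and Hp47g959) could not be put in an order beyond their spread. YAT1 exceeded YAT2 by 0.26 ± 0.44 (SD, n = 4, 95% confidence interval -0.43 to 0.96) in 3 of 4 cultures, with an exact p of 0.375 (adjusted 0.45). YAT1 exceeded Hp47g959 by 0.23 ± 0.25 (-0.17 to 0.62) in 4 of 4 cultures, with an exact p of 0.13 (adjusted 0.188). YAT2 and Hp47g959 differed by -0.036 ± 0.34 (YAT2 minus Hp47g959, -0.58 to 0.51), with an exact p of 0.875, and the difference was positive in 2 of 4 cultures. These intervals include no difference and differences of up to 0.96 on the log2 scale, so they do not show that the genes responded alike.

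The size of the change depended on the labelling for all 4 genes. With methanol in Cy5 the mean fold change of CRC1 was 158, and with glucose in Cy5 it was 52.1. For YAT1 the values were 70.2-fold with methanol in Cy5 and 23.4-fold with glucose in Cy5. YAT2 had 43.2-fold with methanol in Cy5 and 26.5-fold with glucose in Cy5, and Hp47g959 had 62.2-fold and 19.3-fold in the same order. The mean over both labellings, used above, weights them equally. Its confidence intervals, given above, come from the spread between cultures of this mean and do not cover the difference between the labellings. The fold changes of both single labellings lay outside these intervals for CRC1, YAT1 and Hp47g959, and inside for YAT2.

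The labelling difference, which is the log2 ratio with methanol in Cy5 minus that with glucose in Cy5 of the same culture, was positive in 4 of 4 cultures for each shuttle gene, as it was for 23.2% of all genes. It was 1.60 ± 0.61 for CRC1, 1.58 ± 0.23 for YAT1, 0.71 ± 0.27 for YAT2 and 1.69 ± 0.47 for Hp47g959 (SD, n = 4). The adjusted p values were 0.00713, 0.00157, 0.00765 and 0.00428 (limma, Benjamini-Hochberg over all genes), so all 4 were past the limit of 0.05 in this direction, as were 15.2% of all genes. By size, Hp47g959, CRC1 and YAT1 ranked 5, 7 and 8 of the 5999 genes, and YAT2 ranked 149.

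**Figure D3:**
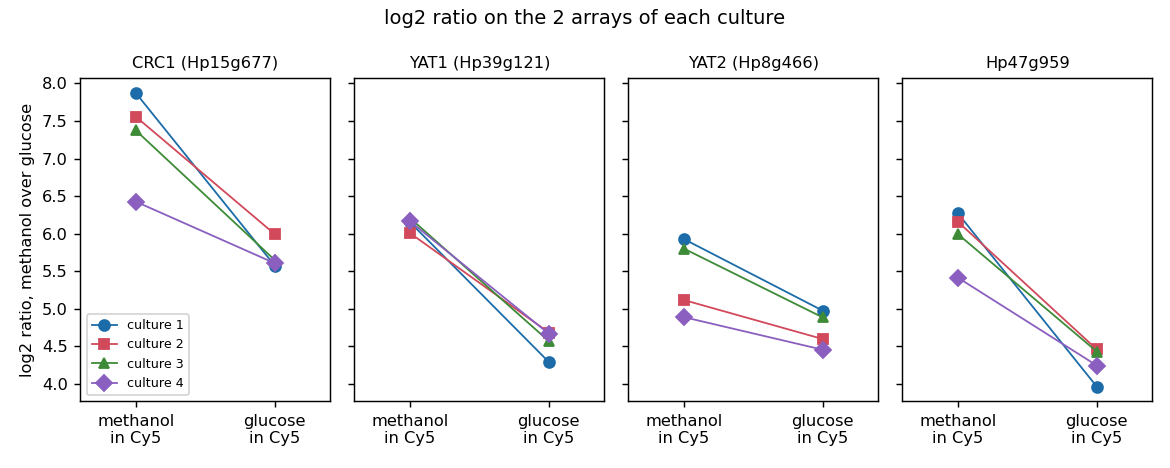
log2 ratio of methanol over glucose for each shuttle gene on the 2 arrays of each culture, with methanol in Cy5 and with glucose in Cy5, joined by a line. Every line runs downward, on average by 0.71 for YAT2 up to 1.69 for Hp47g959.

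Between the dyes, the processed methanol signals differed less than the glucose signals. The methanol signal in Cy5 over that in Cy3 averaged 0.850 for CRC1, 0.865 for YAT1, 1.01 for YAT2 and 0.961 for Hp47g959. The glucose signal was higher in Cy5 than in Cy3 by 3.57-fold for CRC1, 3.46-fold for YAT1, 1.61-fold for YAT2 and 3.35-fold for Hp47g959. Over the cultures, the ratio of CRC1 ran between 0.688 and 0.961 for methanol and between 1.93 and 5.12 for glucose, and that of YAT2 between 0.911 and 1.16 for methanol and between 1.48 and 1.84 for glucose. Each of these ratios compares 2 arrays of the same RNA and rests on the dye normalization of Feature Extraction. On the mean signals before it, with only a common offset per culture removed, the ratios in culture 3 were 1.66 for methanol and 1.16 for glucose for YAT2, and 1.75 for methanol and 1.82 for glucose for Hp47g959, so there the dyes differed in both conditions.

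The labelling difference was positive in all 4 cultures for 52 of the 60 genes with a mean log2 ratio over 5, for 46 of the 65 genes between 4 and 5 and for 60 of the 111 genes between 3 and 4, and each of these groups also held genes with a negative mean difference. The median was 0.71 for the 60 genes, the 4 shuttle genes among them, 0.31 for the 65 genes and 0.16 for the 111 genes. It was -0.061 for the 3043 genes between -1 and 1. The differences of CRC1, YAT1 and Hp47g959 were thus more than double the median of the first group, and that of YAT2 was equal to it to 2 decimals. In those 60 genes the Cy5 over Cy3 ratio had a median of 0.950 for the methanol signal and 1.71 for the glucose signal, and in the 3043 genes the medians were 1.00 for methanol and 0.960 for glucose.

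**Figure D4:**
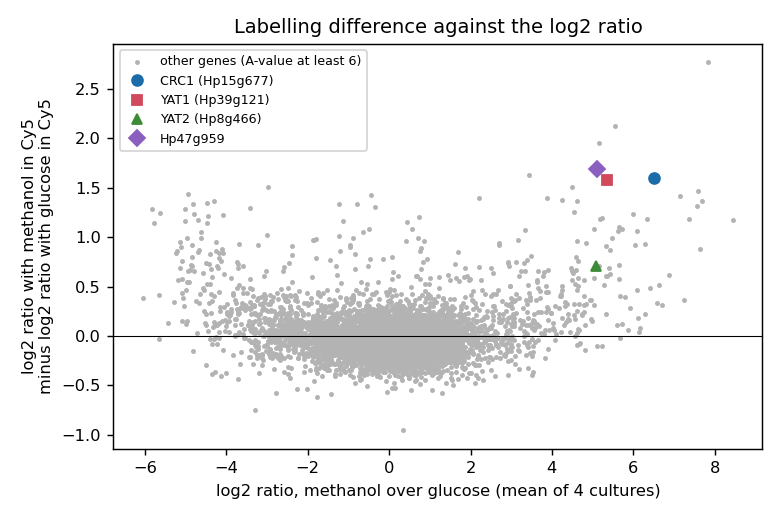
Labelling difference (log2 ratio with methanol in Cy5 minus that with glucose in Cy5) against the mean log2 ratio over 4 cultures, for the genes with an A-value of at least 6. CRC1, YAT1 and Hp47g959 lie between 1.58 and 1.69, among the highest points, and YAT2 lies at 0.71.

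The bright methanol spots were read differently from the dim glucose spots. Feature Extraction marks spots whose value was taken from a second scan at low gain and scaled up. All 16 methanol spots of CRC1, of YAT1 and of Hp47g959 carried this mark, as did 10 of 16 methanol spots of YAT2, 8 of 8 in Cy5 and 2 of 8 in Cy3. Of the glucose spots, 0 of 16 carried it for CRC1 and for YAT2, and 4 of 16 for YAT1 and for Hp47g959, all of them in Cy5. The part of this scaling in the fold changes and in the labelling difference was not tested. The dimmest glucose spots still had a mean signal 15.1-fold above the local background for CRC1, 44.1-fold for YAT1, 9.12-fold for YAT2 and 42.7-fold for Hp47g959. On the same array, both spots of a gene differed in their log2 ratio by a median of 0.070, and by at most 0.72, for CRC1.

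Acetylcarnitine is supplied by pathways that form acetyl-CoA, and in yeasts the main one in peroxisomes is the beta-oxidation of fatty acids. The study lists genes related to this pathway together with the shuttle genes, and 7 of them were grouped here as beta-oxidation genes. They were selected on these samples, so their direction is not independent evidence. All 7 were called upregulated, against 19.1% of all genes, with a median log2 ratio of 3.56 (11.8-fold), against 5.23 for the 4 shuttle genes and 0.041 for all genes. Among the enzymes, Hp27g292 (catalase, which removes the hydrogen peroxide of peroxisomal oxidases) rose 40.3-fold, Hp8g261 (multifunctional enzyme) 20.1-fold, Hp24g1381 (3-ketoacyl-CoA thiolase, which releases acetyl-CoA) 15.1-fold and Hp33g132 (acyl-CoA oxidase, the first step) 11.8-fold. Among the transporters, the peroxisomal ABC transporter subunits Hp8g534 and Hp33g390 rose 7.40- and 6.28-fold. The adenine nucleotide transporter Hp44g158 rose 2.79-fold, a call that was lost when limma tested against a 2-fold change (treat, adjusted p = 0.158). Labelling differences were -0.16 to 0.61 in the 7 genes and 0.71 to 1.69 in the shuttle genes. The gap between the lists thus depended on the labelling. With glucose in Cy5 alone, the log2 ratio of catalase (5.03) was above YAT2 (4.73), YAT1 (4.55) and Hp47g959 (4.27), but below CRC1 (5.70). The other beta-oxidation genes reached at most 4.16. Over both labellings catalase (5.33) was above YAT2 (5.08) and Hp47g959 (5.12).

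The spread between cultures overlapped between the 2 lists, from 0.31 to 1.07 for the beta-oxidation genes and from 0.086 to 0.38 for the shuttle genes. The median SD of the log2 ratio was 0.65 for the 7 beta-oxidation genes, 0.28 for the 4 shuttle genes and 0.26 for all genes. The acyl-CoA oxidase gene had log2 ratios of 4.57, 2.06, 3.65 and 3.94 in cultures 1 to 4, the lowest in culture 2. In that culture CRC1 and Hp47g959 had their highest ratio over both labellings, and YAT2 had one of its 2 lower ratios. For the thiolase the ratios were 4.34, 2.92, 3.93 and 4.46, lowest again in culture 2. By culture, the median of the 7 genes was 4.34, 2.35, 3.65 and 3.94, and that of the shuttle genes was 5.34, 5.33, 5.36 and 5.12. No test was made of the difference in spread.

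The glyoxylate cycle is a route by which yeasts use acetyl-CoA outside mitochondria, and isocitrate is its branch point with the citric acid cycle. All 3 genes grouped here for these steps, from the same list of the study and again selected on these samples, were called upregulated. This compares with 19.1% of all genes, and their median log2 ratio was 4.61 (24.4-fold). Hp29g305 (isocitrate lyase) had log2 ratios of 4.69, 5.09, 4.89 and 4.72 in cultures 1 to 4, and Hp36g14 (isocitrate dehydrogenase) had 4.63, 4.70, 4.73 and 4.37. Their SDs of 0.19 and 0.16 lay within the range of the shuttle genes, and so did their labelling differences of 0.95 and 1.37. With glucose in Cy5 alone they rose 20.8- and 15.2-fold, and with methanol in Cy5 alone 40.0- and 39.1-fold. Hp43g61 (malate synthase, which condenses glyoxylate with acetyl-CoA) rose 8.07-fold, with log2 ratios between 2.53 and 3.81. Its SD of 0.61 was above the range of the shuttle genes, and its labelling difference of 0.29 was below theirs.

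Pyruvate dehydrogenase forms acetyl-CoA inside mitochondria without the shuttle. Neither of its subunit genes passed the limits in the fit over both labellings and all cultures, but both did so in row 1 of the slide alone, with log2 ratios of -1.57 for the beta and -1.16 for the alpha subunit. Hp37g184 (beta subunit) was at -0.98 ± 0.81 on the log2 scale (SD, n = 4, limma adjusted p = 0.0267), just inside the 2-fold limit, and Hp6g262 (alpha subunit) was at -0.56 ± 0.81 (limma adjusted p = 0.142). The log2 ratios of the alpha subunit ran between -1.63 in culture 1 and 0.22 in culture 4. Of the 5 genes for pyruvate metabolism and gluconeogenesis, 2 were called upregulated and 0 downregulated, against 19.1% and 21.4% of all genes. The 2 genes were Hp5g547 (phosphoenolpyruvate carboxykinase), at 5.89-fold, and Hp46g88 (fructose 1,6-bisphosphatase), at 4.37-fold. Hp18g102 (pyruvate carboxylase) had a log2 ratio of 0.90 ± 0.12 (SD, n = 4) and did not pass the 2-fold limit.

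**Figure D5:**
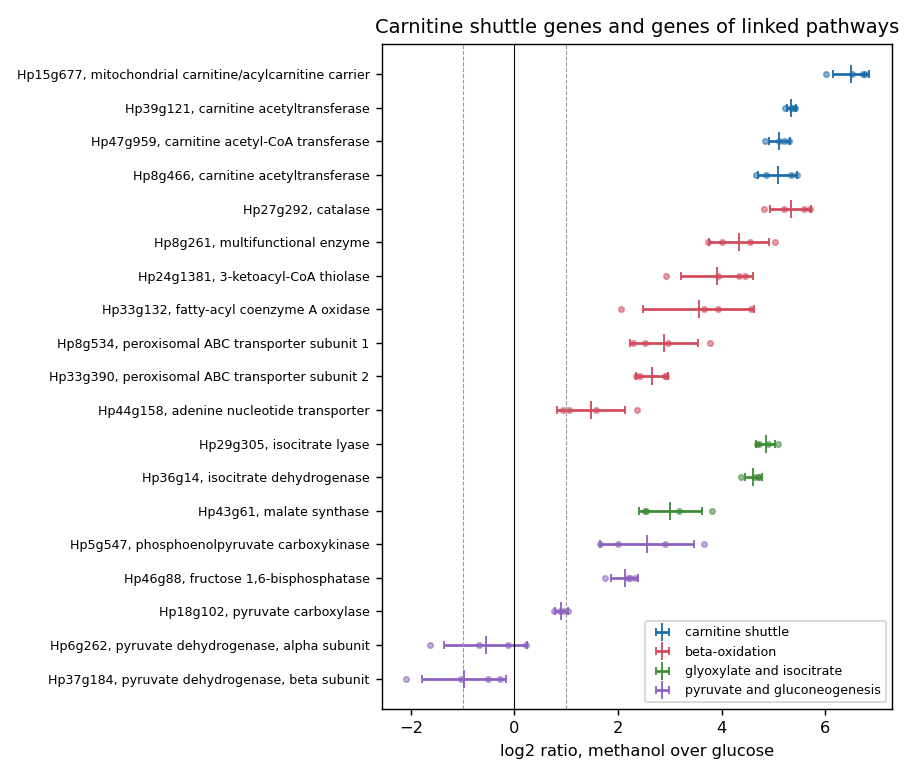
log2 ratio of methanol over glucose for the shuttle genes and for genes of beta-oxidation, of the glyoxylate and isocitrate steps, and of pyruvate metabolism and gluconeogenesis. Small points are the 4 cultures, vertical marks with bars are mean ± SD (n = 4), and dashed lines are the 2-fold limits. The means of the shuttle genes lie at 5.08 to 6.51. Those of the pyruvate dehydrogenase subunits lie below 0, though the alpha subunit is at 0.22 in culture 4.

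The genes with log2 ratios most like those of each shuttle gene were then listed. Likeness was measured as the root mean square difference of the log2 ratios over 4 cultures, among the 5477 genes with an A-value of at least 6, a measure that counts the mean level as well as the order of the cultures, and the names are those of the closest database match given by the study. The nearest to CRC1 were Hp26g416 (match to AMA1) at 0.185, Hp13g52 (maltase) at 0.270 and Hp35g59 (NUCM, a subunit of respiratory complex I) at 0.326. The nearest to YAT1 were Hp1g67 (match to an L-arabinitol 4-dehydrogenase) at 0.152, Hp33g178 (match to a complex I chain) at 0.173 and Hp18g124 (match to a quinate transport protein) at 0.183. Hp33g178 was higher in culture 1 (5.44) than in culture 4 (5.24), unlike YAT1, so a small distance need not mean the same order of cultures. CRC1 and YAT1 lay 1.22 apart, and their mean log2 ratios differed by 1.16. Hp47g959 lay 0.312 from YAT1 and ranked 9 in nearness to it, and YAT1 ranked 10 in nearness to Hp47g959.

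The nearest to YAT2 was Hp24g240 (match to the membrane protein YGR067c), at 0.112. Its log2 ratios of 5.50, 5.04, 5.35 and 4.79 in cultures 1 to 4 had the same higher and lower pairs as YAT2. Hp15g196 followed at 0.192 and the catalase gene Hp27g292 at 0.272. The nearest to Hp47g959 were Hp29g268 (match to a mannitol dehydrogenase) at 0.114, Hp44g718 at 0.221 and Hp18g124 at 0.222. None of the 3 nearest genes of a shuttle gene was another shuttle gene. The closest pair among the 4 was YAT2 and Hp47g959 at 0.300, where Hp47g959 ranked 7 in nearness to YAT2, and YAT2 ranked 8 in nearness to Hp47g959. Only 4 values per gene define these patterns, and the distances were given no test.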

How the data were processed

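RNA of 4 cultures was measured on 8 two-colour Agilent arrays, 2 per culture with exchanged dyes. The authors deposited the output of Agilent Feature Extraction 9.5, with no background subtraction but spatial detrending, and its processed signal intensity per spot and dye was used. A deposited table of log10 ratios, methanol over glucose, has values that stand 5 positions away from their identifiers. Shifted back, it was identical to the ratios of Feature Extraction, and it served as an alternative. The medians of its columns lay between 0 and 0.00159.

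Processed signals were turned into log2 ratios of methanol over glucose, averaged over the 2 spots of a gene and then over both arrays of a culture (n = 4), without spots marked as outliers. An intercept was fitted for each of 5999 genes with limma 3.58.1 in R 4.3.3 (data read with data.table, version 1.17.8), with empirical Bayes moderation and Benjamini-Hochberg adjustment over all genes. The labelling difference was fitted likewise. Confidence intervals of fold changes are limma's; those of differences between genes use the SD over cultures. The fit was tested on simulated data. Figures were made with Python 3.11.15, numpy 2.4.6, pandas 2.3.3 and matplotlib 3.10.9.

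Glucose and methanol RNA of a number come from the same culture per the labels, and the ratio pairs them. The departures of both from the mean of their condition correlated with r between 0.247 and 0.453, which shared arrays can also give. Genes named are the 4 shuttle genes, all genes of the 3 pathway lists and the 3 genes nearest to each shuttle gene. The members, lists and tests were chosen with earlier results of these data known. The gene identifiers do not occur in the reference annotation used, so positions and probe sequences are not given here, and cross-hybridisation among the acetyltransferase probes was not tested. The number of arrays limits the precision.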

Additional observations from a re-analysis of the deposited data

Results flagged for a closer look

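The levels, log2 ratios and labelling differences of the shuttle genes, and the log2 ratios of the other listed genes, were searched for a culture far from the other 3 by Dixon's criterion (critical value 0.829). Of 31 sets of 4 values, 2 had such a culture, where chance gives about 1 in 20. The log2 glucose level of CRC1 was 11.56 in culture 1, against 10.25 to 10.39 in the other cultures, and that of YAT1 was 13.21 in culture 1, against 11.90 to 12.08. Both genes also had their highest methanol level in this culture, and their log2 ratios there, 6.72 and 5.22, lay within or close to the range of the others.

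The log2 ratio differed between the 2 labellings for all 4 shuttle genes. The ratio with methanol in Cy5 exceeded that with glucose in Cy5 by 1.60 for CRC1, 1.58 for YAT1, 0.71 for YAT2 and 1.69 for Hp47g959, with the adjusted p values given above (limma, Benjamini-Hochberg).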

How the results depend on the processing

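The log2 ratios of the 4 shuttle genes kept their direction and their call under all 24 alternatives. These changed the background correction, normalization, labelling, A-value minimum, test, row of arrays and cultures. Alternatives that changed only the test, the A-value minimum or the blocking left the log2 ratio itself as it was, so they bear on the call alone. Without the A-value minimum or without p adjustment a call could only be kept. The lowest and highest fold changes of the shuttle genes were those of the single labellings given above. Leaving out 1 culture at a time gave fold changes of 85.4 to 102 for CRC1, 39.9 to 41.7 for YAT1, 31.0 to 37.2 for YAT2 and 33.2 to 37.0 for Hp47g959. Without the replicate block that pairs the samples of a culture, the log2 ratios stayed by construction at 6.51, 5.34, 5.08 and 5.12 in the same order. No call of a shuttle gene changed.

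The order of YAT2 among the acetyltransferase genes turned with the labelling. With glucose in Cy5 alone, YAT1 minus YAT2 was -0.17 and YAT2 minus Hp47g959 was 0.45 on the log2 scale. Over the fits without 1 culture, YAT2 minus Hp47g959 was between -0.16 and 0.10, and it was positive without culture 2 (0.10) and without culture 4 (0.0047). The labelling difference kept its sign but missed the limit, with 2 cultures each, for CRC1 in row 1 (1.93) and row 2 (1.27), for YAT2 in row 1 (0.74) and row 2 (0.68) and for Hp47g959 in row 2 (1.37). The pyruvate dehydrogenase alpha subunit had a log2 ratio of -1.16 in row 1, a call downward, and 0.043 in row 2. The beta subunit was called downward under 5 alternatives (median centring, glucose in Cy5 alone, row 1, without culture 3 and without culture 4), at -1.57 to -1.02. The treat test against a 2-fold limit called 760 genes up and 910 down, against 1145 and 1283, and 6 of the 7 beta-oxidation genes. The causes were not tested.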
